A study of Mus musculus with 6 samples.

Results

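The IL-1 family and inflammasome genes described here are 10 genes chosen by symbol, *Il1a*, *Il1b*, *Il1rn*, *Il1r1*, *Il1r2*, *Il18*, *Nlrp3*, *Casp1*, *Pycard* and *Gsdmd*. All 10 were found among the 54532 genes of the deposited read counts, and all 10 had enough reads to be tested. Lungs of 3 GR+/+ and 3 GRdim/dim mice were compared, one library of poly(A)-captured RNA per mouse. In GRdim/dim mice the glucocorticoid receptor (GR) of every cell has an exchange of a single amino acid where it binds DNA, and dimerization is impaired. Wildtype littermates were the GR+/+ group. Both genotypes had the mixed background 129/SvEv x C57BL/6 and were 10 to 16 weeks old. All mice of both genotypes were anesthetized, ventilated, kept in hemorrhagic shock (HS) with an arterial pressure of 35 mmHg lasting 1 h, re-transfused and resuscitated for 4 h with colloids and norepinephrine before the lungs were taken. No lungs without HS are among these libraries, so the values show the genotypes after HS and not the response to HS.

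IL-1α and IL-1β are cytokines that bind the same receptor, IL-1R1, which signals through the adaptor MyD88 to NF-κB. The receptor antagonist encoded by *Il1rn* occupies IL-1R1 without signaling, and IL-1R2 binds IL-1 as a decoy because it lacks a signaling domain. IL-1β and IL-18 are made as inactive precursors that are cut by caspase-1 inside the inflammasome, a complex of a sensor such as NLRP3, the adaptor ASC (encoded by *Pycard*) and caspase-1, which also cuts gasdermin D so that it forms pores in the membrane. In the lung, IL-1β comes mainly from neutrophils, monocytes and macrophages, and glucocorticoids are known to lower its transcription. Read counts measure the transcripts only and hold no information on cleavage or release of the proteins.

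Libraries held 15687734 to 32082940 counts. Lung epithelial markers were abundant in every library (summed level of 7 alveolar genes, *Sftpc* the most abundant, 16998 to 27399 CPM, that is counts per 1000000 counts of the library after TMM scaling). The libraries GR+/+ replicate 1 and GRdim/dim replicates 1 and 3 had 203 to 260 CPM of Y-linked genes and the others under 0.1 CPM, so that sex was not balanced between the genotypes. GRdim/dim replicate 1 stood apart in neutrophil markers. The summed level of 12 neutrophil genes was 1185 CPM in this library, against 394 and 516 CPM in the other GRdim/dim libraries and 552, 356 and 285 CPM in GR+/+ replicates 1, 2 and 3. Of the 10 neutrophil genes tested, 9 had a higher fitted level in GRdim/dim lungs, 4 had an unadjusted *p*-value under 0.05 and none was called in edgeR. Over all genes tested, these shares were 50.9%, 9.6% and 0.169%. *Ngp*, *Trem1* and *Retnlg* were higher without overlap (log2 fold changes 2.73, 1.08 and 1.099, adjusted *p* of at least 0.0965 in edgeR), and the most abundant, *S100a9*, had 348, 106 and 167 CPM in GRdim/dim and 136, 101 and 85.0 CPM in GR+/+ replicates 1, 2 and 3. In bulk RNA, more cells of a type and more RNA per cell cannot be told apart.

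The 3 members whose libraries did not overlap between genotypes were *Il1b*, *Il1a* and *Il1r1*, all higher in GRdim/dim. Of all genes tested, 7.77% were higher without overlap, and 14.8% did not overlap in either direction. The promoters of *Il1b*, *Il1a* and *Il1r1* are shown because these are the members that separated the genotypes. Each sequence is the 250 bases before the start site in RefSeq (GRCm38.p6), read 5′ to 3′ on the strand of the gene. Capitals mark matches to the AP-1 motif TGANTCA, the NF-κB motif, the TATA box TATAAA, the palindromic glucocorticoid response element and its half-site AGAACA, searched on both strands. The full element contains the half-site.
*Il1b*, chr2:129371140-129371389, minus strand: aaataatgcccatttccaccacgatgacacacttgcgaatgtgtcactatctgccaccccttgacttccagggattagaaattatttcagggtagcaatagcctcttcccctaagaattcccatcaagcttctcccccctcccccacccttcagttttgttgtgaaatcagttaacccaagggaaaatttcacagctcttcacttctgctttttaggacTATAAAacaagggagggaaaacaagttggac
*Il1a*, chr2:129309973-129310222, minus strand: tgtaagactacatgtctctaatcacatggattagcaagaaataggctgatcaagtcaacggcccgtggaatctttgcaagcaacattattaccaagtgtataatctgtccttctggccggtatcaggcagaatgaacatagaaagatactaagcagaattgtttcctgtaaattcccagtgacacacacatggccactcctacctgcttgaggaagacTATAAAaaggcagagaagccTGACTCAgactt
*Il1r1*, chr1:40224830-40225079, plus strand: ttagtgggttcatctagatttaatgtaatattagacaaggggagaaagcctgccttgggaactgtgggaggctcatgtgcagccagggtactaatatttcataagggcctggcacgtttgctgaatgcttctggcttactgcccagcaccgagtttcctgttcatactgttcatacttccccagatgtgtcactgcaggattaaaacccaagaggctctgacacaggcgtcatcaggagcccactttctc
The TATA box of *Il1b* begins 31 bases and that of *Il1a* 32 bases before the start site, and *Il1a* has an AP-1 match that begins 12 bases before it. Of 32817 mouse promoter windows of 300 bases (250 before and 50 after the start), 13.6% hold the TATA letters, 7.81% an AP-1 match, 8.46% an NF-κB match and 19% the half-site. No full glucocorticoid response element was found in any window of the 9 members with a RefSeq promoter, and 0.00914% of all windows hold one. *Gsdmd* is the member not in that table. Other matches were in *Il1rn* (AP-1, and the TATA letters on the opposite strand at a further start site), *Nlrp3* (NF-κB), *Casp1* (half-site), *Il18* (half-site, and the TATA letters on the opposite strand), and a further *Il1r1* start site (NF-κB and half-site). A match describes the letters in this window and does not show binding.

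None of the 10 genes passed the test for a genotype difference, but all 10 had a higher fitted level in GRdim/dim than in GR+/+ lungs. Genotypes were compared by the quasi-likelihood test of edgeR, adjusted by Benjamini-Hochberg over 16568 genes, and calls needed a log2 difference above 0.5 in size besides an adjusted *p*-value under 0.05. Of all genes tested, 0.169% were called, 0.0724% higher and 0.0966% lower. DESeq2 also called 0 of the 10, where it called 1.7% of all genes. At an unadjusted *p*-value under 0.05 in edgeR, 1 member (*Il1b*) was higher and 0 were lower, against 4.91% and 4.68% of all genes (9.6% in either direction). The median log2 fold change of the 10 was 0.47, and it was 0.01 over all genes tested, of which 50.9% had a value above 0. Without GRdim/dim replicate 1, the library with the most neutrophil RNA, the median of the 10 was 0.30. Libraries of the genotypes did not overlap for 3 of the 10 genes, all higher in GRdim/dim, against 7.77% of all genes in that direction, 7.05% in the opposite one and 14.8% in either. These 3 were the same with TMM and RLE scaling. For 1 gene at a time, the smallest *p*-value that exact permutation of 3 and 3 lungs allows is 0.1.

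**Figure D1:**
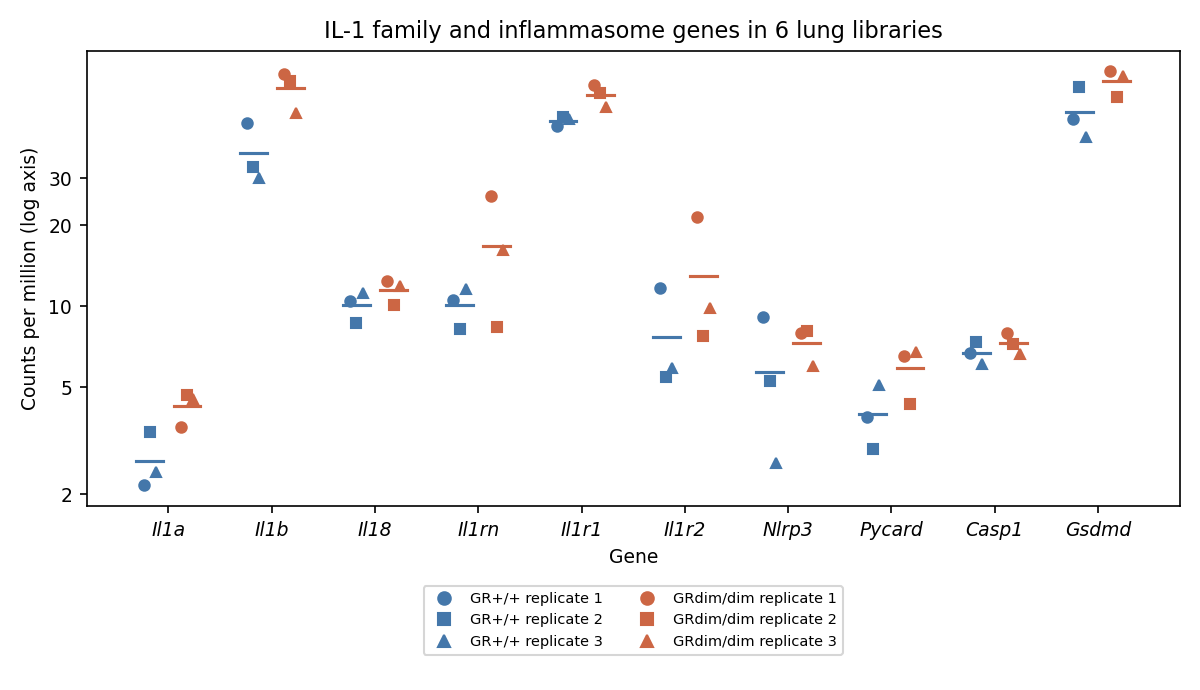
CPM of the 10 genes (log axis) in each of the 3 GR+/+ (blue) and 3 GRdim/dim (orange) lung libraries, with horizontal lines at the group means. The GRdim/dim libraries lie above all GR+/+ libraries for Il1a, Il1b and Il1r1. GRdim/dim replicate 1 is the highest library for Il1b, Il1r1, Il1rn, Il1r2, Il18, Casp1 and Gsdmd, but not for Il1a, Nlrp3 and Pycard.

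*Il1b* encodes the main secreted IL-1 agonist and had the smallest *p*-value of the 10 genes. It lies on the minus strand of chromosome 2 from 129364570 to 129371139 (ENSMUSG00000027398). The GRdim/dim libraries had 73.2, 69.1 and 52.6 CPM and the GR+/+ libraries 48.2, 32.9 and 30.2 CPM in replicates 1, 2 and 3. Every GRdim/dim lung was above every GR+/+ lung, and the lowest GRdim/dim and the highest GR+/+ values were close to each other. The means were 64.9 ± 10.9 and 37.1 ± 9.69 CPM (SD, n = 3 each), a log2 fold change of 0.81 with a standard error of 0.22 and a 95% confidence interval of 0.32 to 1.30. In edgeR's test the unadjusted *p* was 0.00409 and the adjusted *p* 0.262, and the exact permutation test gave *p* = 0.1, the smallest possible. DESeq2 gave an adjusted *p* of 0.0637. Without a filter on low counts, *Il1b* was called in edgeR with the difference still at 0.81 (adjusted *p* = 0.0133, and 0.0133 to 0.502 across the alternatives). In that setting edgeR called 522 of 31368 genes, against 28 of 16568 in the main fit.

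*Il1b* levels are given by Y-linked reads because sex was not balanced, and each such comparison has a single library on one side. Among libraries with Y-linked reads, the GRdim/dim lungs had 73.2 and 52.6 CPM and the GR+/+ lung 48.2 CPM. Among those without, the GRdim/dim lung had 69.1 CPM and the GR+/+ lungs 32.9 and 30.2 CPM. With a covariate for sex-linked expression the log2 fold change was 0.75 (adjusted *p* = 0.393 in edgeR). In GRdim/dim replicate 2, the neutrophil sum (394 CPM) lay within the GR+/+ range of 285 to 552 CPM, but *Ngp* (7.48 CPM), *Trem1* (9.97 CPM), *Retnlg* (34.1 CPM) and *Camp* (3.99 CPM) were above every GR+/+ library. Of the other 8 genes in that library, *S100a8* (69.0 CPM) was below every GR+/+ library and 7 lay within the GR+/+ range. Without GRdim/dim replicate 1, the library with the most neutrophil RNA, its log2 fold change was 0.72 (adjusted *p* = 0.389 in edgeR). The part of neutrophil RNA in the *Il1b* and *Il1a* values was not tested, nor was the part of sex in the *Il1b* value beyond this covariate. An antisense gene, *Il1bos*, overlaps 25 bases of its exons and had 2 to 13 counts per library, where *Il1b* had 549 to 1663.

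*Il1a*, the gene of the other agonist, lies on the same strand (chromosome 2 from 129299610 to 129309972, ENSMUSG00000027399). It was a low gene with 36 to 113 counts per library. The levels were 3.56, 4.69 and 4.52 CPM in GRdim/dim and 2.15, 3.42 and 2.41 CPM in GR+/+ replicates 1, 2 and 3, so that the groups were separated by a narrow gap between GRdim/dim replicate 1 and GR+/+ replicate 2. Its log2 fold change was 0.68 with a standard error of 0.33 and a 95% confidence interval of -0.04 to 1.40 (unadjusted *p* = 0.0617, adjusted *p* = 0.552 in edgeR). Antisense exons of *Gm14023* overlap 222 bases of *Il1a* and had 2 to 9 counts per library.

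*Il18* encodes an IL-1 family cytokine that epithelial cells and macrophages make without prior stimulation (chromosome 9 from 50554827 to 50581840, ENSMUSG00000039217). It had 12.5, 10.1 and 11.9 CPM in GRdim/dim and 10.5, 8.63 and 11.2 CPM in GR+/+ replicates 1, 2 and 3. The groups overlapped, and the log2 fold change of 0.19 (standard error 0.23, 95% confidence interval -0.33 to 0.70) had an adjusted *p* of 0.874 in edgeR. With each library left out in turn, the log2 fold change of *Il18* lay between 0.09 and 0.27. Its levels spanned a narrower range over the 6 libraries than those of *Il1b*.

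*Il1rn*, which encodes the receptor antagonist (chromosome 2 from 24336853 to 24351494, ENSMUSG00000026981), varied widely among GRdim/dim lungs. The GRdim/dim values were 25.7, 8.39 and 16.1 CPM and the GR+/+ values 10.6, 8.21 and 11.6 CPM in replicates 1, 2 and 3. GRdim/dim replicates 1 and 3 were above all GR+/+ lungs, while replicate 2 was among them. Its log2 fold change was 0.72 with a standard error of 0.36 (95% confidence interval -0.08 to 1.52, adjusted *p* = 0.577 in edgeR). The value fell to 0.28 without GRdim/dim replicate 1 and to 0.34 with a covariate for sex-linked expression, and it was 1.04 without GRdim/dim replicate 2 (adjusted *p* = 0.835, 0.908 and 0.321 in edgeR, and 0.258 to 0.908 across the alternatives). GRdim/dim replicates 1 and 3 were the GRdim/dim libraries with Y-linked reads. In GR+/+, the library with Y-linked reads (replicate 1, 10.6 CPM) lay between replicates 2 and 3 (8.21 and 11.6 CPM).

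*Il1r1* encodes the signaling receptor, which endothelial, epithelial and stromal cells carry (chromosome 1 from 40225080 to 40317257, ENSMUSG00000026072). It had 66.7, 62.5 and 55.3 CPM in GRdim/dim and 46.8, 50.6 and 49.6 CPM in GR+/+ replicates 1, 2 and 3. The GR+/+ lungs lay close together and all GRdim/dim lungs were above them. The difference was small, a log2 fold change of 0.33 with a standard error of 0.16 and a 95% confidence interval of -0.03 to 0.68. The unadjusted *p* was 0.0662 and the adjusted *p* 0.564 in edgeR's test. With each library left out in turn, the log2 fold change lay between 0.27 and 0.40.

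*Il1r2* encodes the decoy receptor, a gene of neutrophils that glucocorticoids are known to induce in myeloid cells (chromosome 1 from 40074079 to 40125231, ENSMUSG00000026073). The GRdim/dim libraries had 21.5, 7.77 and 9.82 CPM, and the GR+/+ libraries had 11.7, 5.46 and 5.91 CPM in replicates 1, 2 and 3. In each genotype, replicate 1 was the highest and the other two were lower, and the groups overlapped. The same libraries were the highest of their genotype in the neutrophil markers, with 1185 CPM in GRdim/dim and 552 CPM in GR+/+ replicate 1. The log2 fold change of 0.77 (standard error 0.42, 95% confidence interval -0.17 to 1.70) had an adjusted *p* of 0.618 in edgeR. It was 0.21 without GRdim/dim replicate 1 and 1.20 without GR+/+ replicate 1, and 0.40 with a covariate for sex-linked expression (adjusted *p* = 0.899, 0.569 and 0.854 in edgeR, and 0.263 to 0.899 across the alternatives). The part of neutrophil RNA in the *Il1r2* and *Il1rn* values was not tested, nor was the part of sex beyond the covariate for sex-linked expression.

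**Figure D2:**
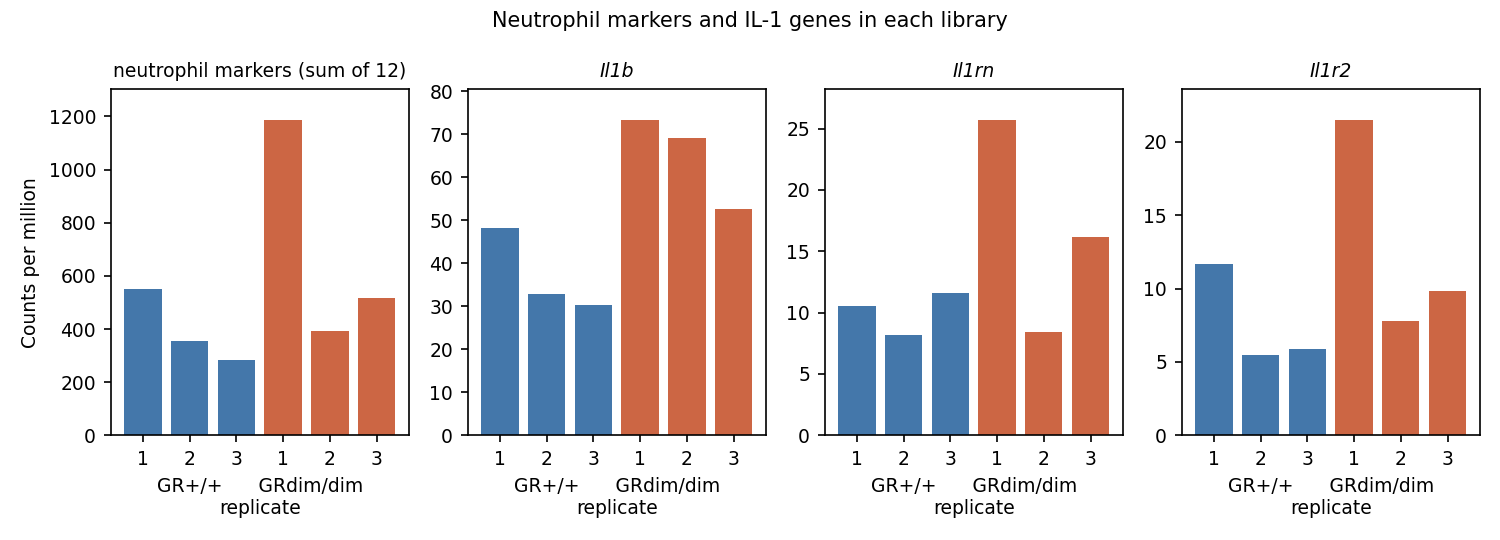
CPM in each library (replicates 1 to 3 of GR+/+ in blue and of GRdim/dim in orange) for the sum of 12 neutrophil marker genes, Il1b, Il1rn and Il1r2, each panel with its own axis from 0. GRdim/dim replicate 1 is the highest in all 4 panels. In GRdim/dim replicate 2 the sum is 394, with 4 of the 12 genes above every GR+/+ library, 1 below and 7 within the GR+/+ range.

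Among the 10 genes, the inflammasome components *Nlrp3*, *Pycard*, *Casp1* and *Gsdmd* overlapped between the genotypes. *Nlrp3*, the sensor (chromosome 11 from 59541568 to 59566956, ENSMUSG00000032691), had 7.93, 8.06 and 6.01 CPM in GRdim/dim and 9.14, 5.28 and 2.60 CPM in GR+/+ replicates 1, 2 and 3. The GR+/+ lungs spanned a wider range than the GRdim/dim lungs and held both the highest and the lowest value. Its log2 fold change of 0.38 (95% confidence interval -0.52 to 1.29, adjusted *p* = 0.839 in edgeR) was 0.03 without GR+/+ replicate 3 and 0.91 without GR+/+ replicate 1 (adjusted *p* = 0.995 and 0.704).

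*Pycard* encodes ASC, the adaptor that joins sensor and caspase (chromosome 7 from 127989708 to 127993867, ENSMUSG00000030793). It had 6.52, 4.32 and 6.78 CPM in GRdim/dim and 3.88, 2.94 and 5.08 CPM in GR+/+ replicates 1, 2 and 3. In both genotypes replicate 2 was the lowest, and GRdim/dim replicate 2 lay within the GR+/+ range. The log2 fold change was 0.55 with a standard error of 0.32 (95% confidence interval -0.17 to 1.27, adjusted *p* = 0.652 in edgeR). Antisense exons of *Gm45205* overlap 485 bases of *Pycard*, with 0 to 10 counts per library against 49 to 160 of *Pycard*.

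*Casp1* encodes the protease that cuts pro-IL-1β, pro-IL-18 and gasdermin D (chromosome 9 from 5298517 to 5307265, ENSMUSG00000025888). It had the smallest difference of the 10 in the main edgeR fit, though not in every alternative. Its levels were 7.93, 7.27 and 6.65 CPM in GRdim/dim and 6.69, 7.37 and 6.10 CPM in GR+/+ replicates 1, 2 and 3. The groups covered nearly the same range, with a log2 fold change of 0.12 and a standard error of 0.25 (95% confidence interval -0.43 to 0.67, adjusted *p* = 0.939 in edgeR). In fold terms this interval reaches from 0.740 to 1.59. With each library left out in turn, the log2 fold change of *Casp1* lay between 0.05 and 0.19.

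*Gsdmd* encodes gasdermin D, the pore-forming protein (chromosome 15 from 75862327 to 75867408, ENSMUSG00000022575). The levels were 74.9, 60.4 and 71.8 CPM in GRdim/dim and 50.02, 65.4 and 42.9 CPM in GR+/+ replicates 1, 2 and 3. Only GRdim/dim replicate 2 was below a GR+/+ lung, replicate 2 of that genotype. The log2 fold change was 0.39 with a standard error of 0.19 (95% confidence interval -0.04 to 0.82, unadjusted *p* = 0.0729, adjusted *p* = 0.576 in edgeR). With each library left out in turn, it lay between 0.26 and 0.58 (adjusted *p* of at least 0.527 in edgeR).

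To compare the genes with each other, CPM were divided by the length of all exons of a gene in kilobases. In GR+/+ lungs *Gsdmd* was the highest with 22.2 ± 4.84 CPM per kilobase (SD, n = 3), followed by *Il1b* with 19.4 ± 5.08. These 2 overlapped and were above all other members. *Il18* followed with 9.79 ± 1.27 and *Il1r1* with 7.70 ± 0.312 CPM per kilobase, each above the next in all 3 lungs. *Casp1* (4.49 ± 0.426) and *Il1r2* (4.02 ± 1.81) overlapped, and so did *Il1rn*, *Nlrp3*, *Il1a* and *Pycard* from one neighbor to the next, with means of 1.04 to 1.83 CPM per kilobase. In GRdim/dim lungs *Il1b* was first with 34.1 ± 5.72 CPM per kilobase (SD, n = 3) and *Gsdmd* second with 29.0 ± 3.23, again with overlap. *Il1b* was above *Gsdmd* in 2 of 3 GRdim/dim lungs and below it in 2 of 3 GR+/+ lungs. The precursor of IL-1β and gasdermin D were thus the most abundant transcripts of the set per length. By this measure the sensor and the adaptor were among the lowest. Exon lengths join all transcripts of a gene, so the level per length is understated for genes with long alternative exons. The length used for *Pycard* was 3800 bases, nearly its whole span on the chromosome, so its low rank is uncertain. In CPM without this division, *Il1a* had the lowest mean in GR+/+ (2.66, *Pycard* 3.97) and in GRdim/dim lungs (4.26, *Pycard* 5.87).

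**Figure D3:**
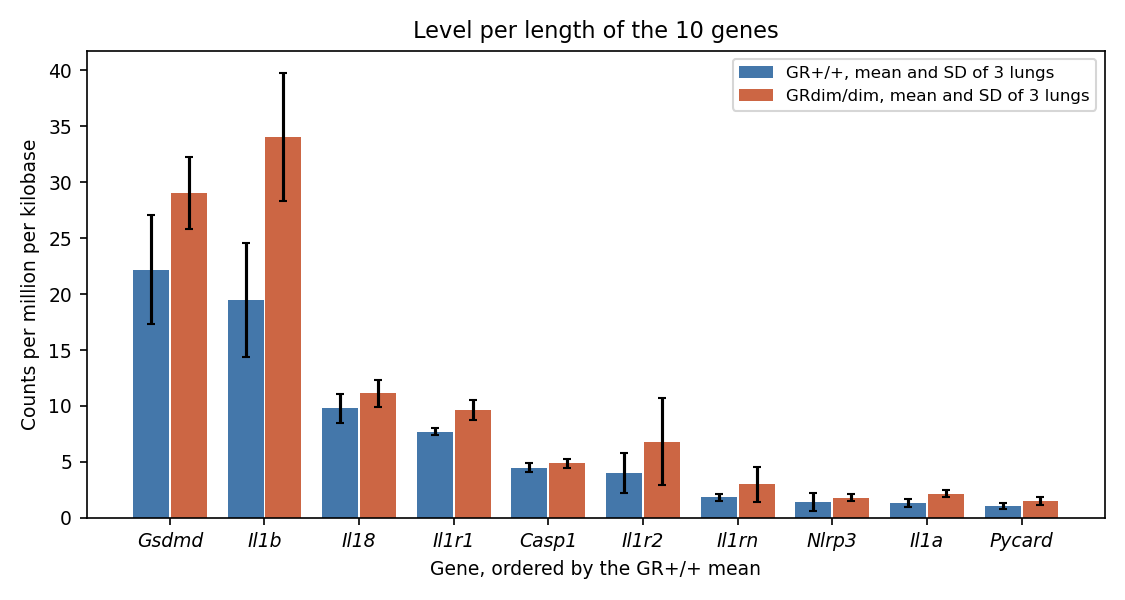
Level per length of the 10 genes, in CPM per kilobase of exon, as the mean (bars) and SD (lines) of 3 lungs per genotype, ordered by the GR+/+ mean. Il1b and Gsdmd are the highest in both genotypes. Pycard, divided by 3800 bases of joined exons, is the lowest in both, but not in CPM without this division.

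Ratios within a library were compared to see whether antagonist and agonist, or decoy and signaling receptor, differed together. The log2 ratio of *Il1rn* to *Il1b* was -1.49, -2.97 and -1.67 in GRdim/dim and -2.14, -1.94 and -1.34 in GR+/+ replicates 1, 2 and 3. GRdim/dim replicate 2 had the least antagonist transcript per agonist transcript of all lungs, and the other GRdim/dim lungs lay within the GR+/+ range. The difference of the means was -0.24 (exact permutation test, two-sided, *p* = 0.8). The log2 ratio of *Il1r2* to *Il1r1* was -1.61, -2.93 and -2.43 in GRdim/dim and -1.96, -3.10 and -2.97 in GR+/+ lungs, a difference of 0.35 (exact permutation test, two-sided, *p* = 0.5). Replicate 1 was the highest of each genotype in this ratio. The log2 ratio of *Il1a* to *Il1b* was -4.18, -3.74 and -3.40 in GRdim/dim and -4.20, -3.09 and -3.40 in GR+/+ lungs, a difference of -0.21 (exact permutation test, two-sided, *p* = 0.7). The genotypes overlapped in all 3 ratios, and adjusted over the 3 tests the *p*-values were all 0.8. Each difference changed sign when a single library was left out. *Il1rn* to *Il1b* was 0.22 without GRdim/dim replicate 2, and *Il1r2* to *Il1r1* was -0.0055 without GRdim/dim replicate 1. *Il1a* to *Il1b* was 0.021 without GR+/+ replicate 2.

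**Figure D4:**
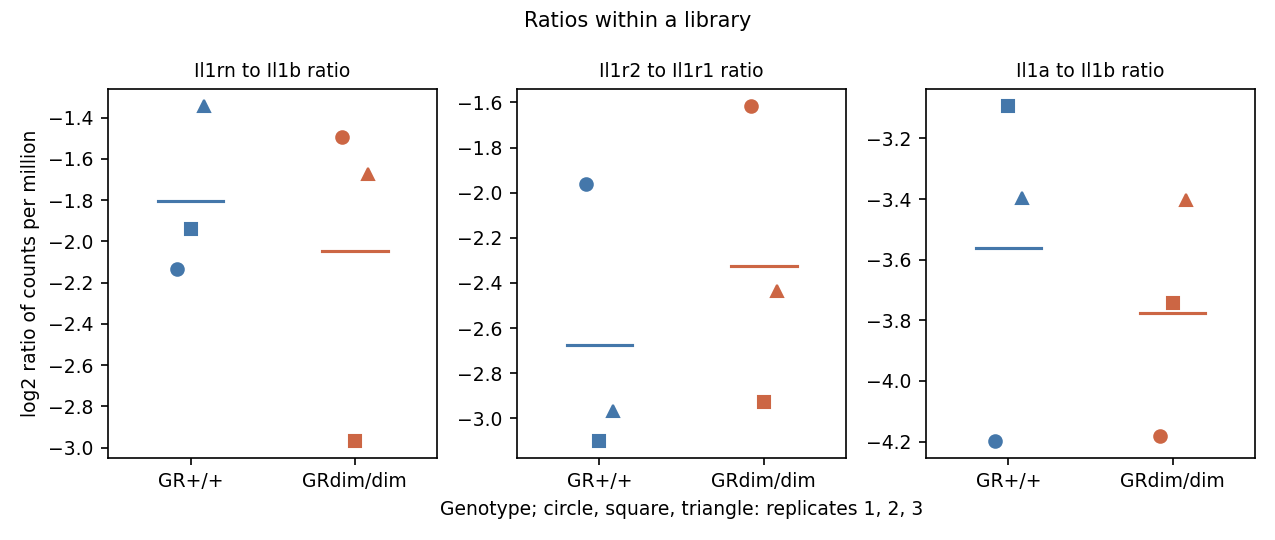
The log2 ratio of CPM within each library for Il1rn to Il1b, Il1r2 to Il1r1 and Il1a to Il1b, by genotype, with lines at the means of 3 lungs and separate axes. The genotypes overlap in each panel, and GRdim/dim replicate 2 has the lowest Il1rn to Il1b ratio, -2.97.

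Other genes of the pathway were taken from a list of 51, of which 41 had enough reads. None of the 41 was called by edgeR or by DESeq2, and at an unadjusted *p*-value under 0.05 in edgeR 7 were higher and 0 lower in GRdim/dim lungs, against 4.91% and 4.68% of all genes. Their median log2 fold change was 0.26, and 31 of the 41 had a value above 0, against 50.9% of all genes. Libraries did not overlap for 8 genes that were higher and 1 that was lower, against 7.77% and 7.05% of all genes.

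The list held 3 caspases. *Casp4* encodes caspase-11, which senses cytosolic lipopolysaccharide, and had 31.5, 26.2 and 28.3 CPM in GRdim/dim and 19.4, 22.7 and 22.0 CPM in GR+/+ replicates 1, 2 and 3. *Casp8*, an apoptotic caspase that can also process pro-IL-1β, had 56.5, 50.3 and 49.3 CPM in GRdim/dim and 40.0, 40.3 and 40.9 CPM in GR+/+ lungs. *Casp12*, a neighbor of *Casp1* and *Casp4* on chromosome 9, had 29.4, 28.5 and 22.5 CPM in GRdim/dim and 20.4, 20.4 and 18.8 CPM in GR+/+ lungs. All 3 genes were separated between the genotypes, where 14.8% of all genes were, and *Casp1* was not, but whether they differ from *Casp1* was not tested. Their log2 fold changes were 0.42, 0.36 and 0.43 with standard errors of 0.18, 0.16 and 0.19 (unadjusted *p* = 0.0439, 0.0442 and 0.0470, adjusted *p* of at most 0.508 in edgeR). Transcript sequence shared with other genes was 8.36% for *Casp8*.

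Of the other components, *Myd88*, the adaptor of IL-1R1, had 93.6, 75.8 and 89.2 CPM in GRdim/dim and 67.4, 68.9 and 58.1 CPM in GR+/+ replicates 1, 2 and 3, and the log2 difference was 0.41 (standard error 0.16, unadjusted *p* = 0.0286, adjusted *p* = 0.456 in edgeR). *Panx1*, a membrane channel that releases ATP, had 11.9, 9.80 and 14.5 CPM against 7.35, 7.85 and 8.16 CPM, a log2 fold change of 0.63 (unadjusted *p* = 0.0271, adjusted *p* = 0.449 in edgeR). *Gsdme*, a gasdermin cut by caspase-3, had 12.8, 9.14 and 9.62 CPM against 6.69, 6.90 and 6.73 CPM, a log2 fold change of 0.64 (unadjusted *p* = 0.0273, adjusted *p* = 0.449 in edgeR). These 3 genes were separated between the genotypes. *Mefv*, the gene of the sensor pyrin, had 13.1, 9.51 and 10.9 CPM in GRdim/dim and 9.38, 6.65 and 3.30 CPM in GR+/+ lungs, with a difference of 0.80 on the log2 scale (standard error 0.36, adjusted *p* = 0.516 in edgeR), with GRdim/dim replicate 2 just above GR+/+ replicate 1.

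*Naip6*, the gene of a NAIP sensor, was also higher without overlap (log2 fold change 0.30, standard error 0.30, adjusted *p* = 0.827 in edgeR). But 35% of its transcript windows of 31 bases occur in other genes such as *Naip1*, so its reads are uncertain. *Tollip*, an inhibitor of IL-1 receptor signaling, was the 1 gene of the list that was lower without overlap, with 124, 116 and 122 CPM in GRdim/dim and 148, 128 and 127 CPM in GR+/+ lungs. The fitted difference was -0.15 on the log2 scale (standard error 0.15, adjusted *p* = 0.823 in edgeR). No ligand and no receptor of the list beyond the 10 members was separated between genotypes. *Il33*, the alarmin gene, had means (± SD, n = 3 each) of 58.4 ± 5.34 CPM in GRdim/dim and 58.1 ± 5.64 CPM in GR+/+ mice, a log2 fold change of 0.01 with a 95% confidence interval of -0.36 to 0.37. *Il18r1*, the IL-18 receptor chain, had 140 ± 55.1 and 101 ± 21.6 CPM, a log2 fold change of 0.47 (95% confidence interval -0.12 to 1.06, adjusted *p* = 0.632 in edgeR).

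**Figure D5:**
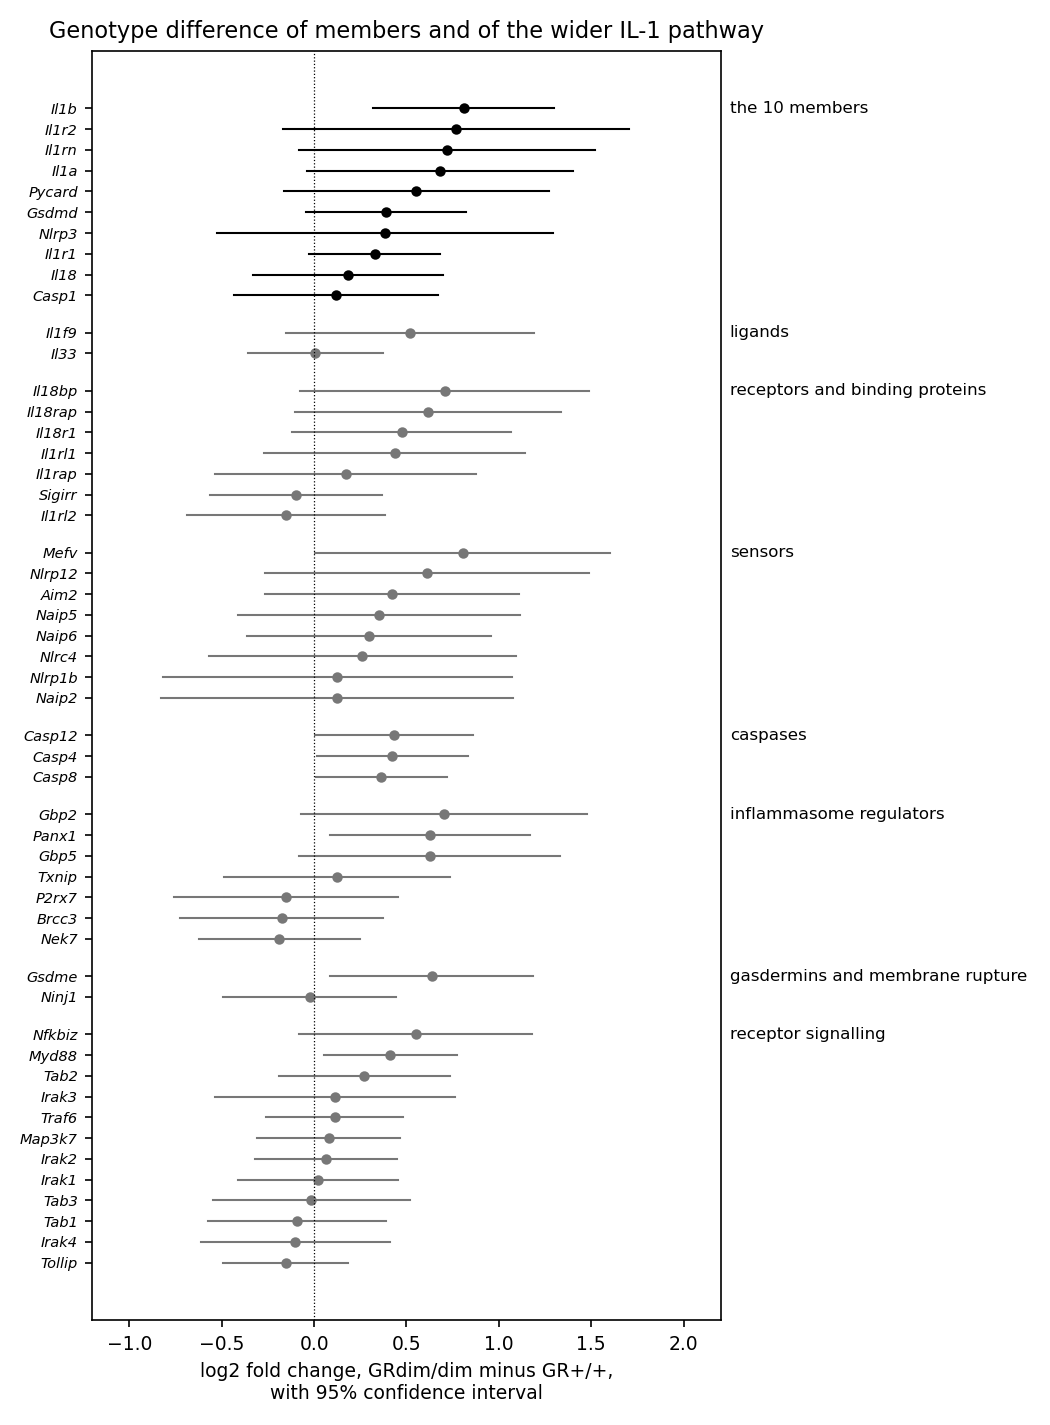
The log2 fold change between GRdim/dim and GR+/+ lungs (points) with its 95% confidence interval (lines) for the 10 genes (black) and the 41 other genes of the IL-1 pathway tested (gray), by role. All 10 points in black lie above 0, from 0.12 (Casp1) to 0.81 (Il1b), and the interval of Il1b is the only one of the 10 that does not include 0.

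The genes most like *Il1b* were found by the root mean square difference of log2 CPM, each gene centered on its mean over the 6 libraries. Among 16558 other genes, the 5 closest were *mt-Tw* (0.11), *Gm47508* (0.12), *Clec4e* (0.14), *Lpcat2* (0.14) and *Tlr2* (0.15), where the median over all genes was 0.56. *mt-Tw*, a mitochondrial tRNA gene, and *Gm47508* had mean levels of 1.93 and 1.25 CPM, so their pattern rests on few reads. *Clec4e*, which encodes the receptor Mincle of myeloid cells, had 19.9, 18.7 and 11.1 CPM in GRdim/dim and 10.9, 8.51 and 7.78 CPM in GR+/+ replicates 1, 2 and 3. *Tlr2*, the gene of a receptor for bacterial lipoproteins, had 40.3, 35.1 and 26.4 CPM in GRdim/dim and 24.3, 19.2 and 20.1 CPM in GR+/+ lungs. These genes were chosen for their likeness to *Il1b* in the same libraries, so their shared order is no separate result. Of the other 9 members, *Il1r1* (0.35) and *Nlrp3* (0.37) were the closest to *Il1b*, and *Il1rn* (0.55) was the farthest, close to the median over all genes.

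Markers of other leukocytes are given beside these values because IL-1 genes are expressed in them, and none of these marker genes was called by edgeR. T cell genes had summed levels of 37.5 to 45.5 CPM in GRdim/dim and 18.2 to 34.1 CPM in GR+/+ libraries, with 7 of 7 genes above 0 in log2 fold change (median 0.83). NK cell genes had 19.4 to 32.8 and 6.39 to 17.0 CPM, with 6 of 6 genes above 0 (median 1.14). Both sums were separated between the genotypes. The 6 B cell genes had 44.4 to 76.1 CPM in GRdim/dim and 20.98 to 47.3 CPM in GR+/+ libraries, sums that overlapped, with 6 of 6 genes above 0 (median 1.05) and 4 at an unadjusted *p*-value under 0.05 in edgeR. Under that *p*-value were also 3 of the 7 T cell and 3 of the 6 NK cell genes. Over all genes tested, 50.9% were above 0 and 9.6% were under that *p*-value. Platelet genes had 25.8 to 35.6 and 16.7 to 22.7 CPM without overlap, with 3 of 5 genes above 0 (median 0.39). But only *Pf4* of the 5 was itself separated, with 15.2, 7.27 and 17.8 CPM in GRdim/dim and 6.45, 5.22 and 4.48 CPM in GR+/+ replicates 1, 2 and 3. Of all genes tested, 14.8% did not overlap.

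Monocyte genes had summed levels of 919 to 1432 CPM in GRdim/dim and 1090 to 2168 CPM in GR+/+ libraries. This sum consists mostly of *Ace*, which lung endothelium also expresses and which had a log2 fold change of -0.87, while 7 of the 9 genes were above 0 (median 0.37) and *Ly6c2* (0.80) was higher without overlap. Alveolar macrophage genes had 563 to 661 and 561 to 632 CPM, with 4 of 11 above 0 and 7 below (median -0.01). The most abundant of them by the mean over all 6 libraries was *Car4* (0.72), which endothelium also expresses, and of the 11 genes *Itgax* (0.47) was higher and *Chil3* (-0.88) lower without overlap. Sums overlapped between genotypes for airway epithelium (15230 to 29786 CPM over all libraries), endothelium (1922 to 2845 CPM) and erythroid genes (1110 to 4336 CPM). Among these genes, *Cldn5* of endothelium (0.94, with the other 4 endothelial genes below 0) and *Hba-a2* of erythroid cells (0.76) were higher without overlap, the latter uncertain because *Hba-a1* is a near-identical copy. By the mean over all 6 libraries, the most abundant genes of the T cell, NK cell, platelet, airway, endothelial and erythroid lists were *Trac*, *Gzma*, *Itga2b*, *Scgb1a1*, *Cdh5* and *Hbb-bs*. None of the lists had a gene at 0 counts in all libraries. The part of these cells in the values of the 10 genes was not tested.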

How the data were processed

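Lung RNA of 3 GR+/+ and 3 GRdim/dim mice was sequenced after poly(A) capture. The files deposited hold read counts for each Ensembl gene as whole numbers without normalization or pooling, together with gene lengths. The submitters' processing notes name the build mm10 and DESeq2, and the aligner, the counting tool and the use of strand are not given in the sources used here. Coordinates of the 10 genes are identical in GENCODE M21 (GRCm38), and 0 value columns were left unmapped.

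edgeR 4.0.16 under R 4.3.3 was used on the counts (filterByExpr, TMM scaling, robust glmQLFit, glmQLFTest, adjustment over all genes tested). DESeq2 1.42.0 was an alternative. CPM were scaled by TMM factors. Log2 CPM used 2 as the prior count, and 0.5 CPM was added before ratios. Standard errors and 95% confidence intervals are from the edgeR fit. Shared sequence was the share of transcript windows of 31 bases that occur in other genes. The procedure was tested on simulated data. The members, gene lists and rules were chosen with earlier results of these data known. Named were all 10 members, the listed pathway genes with an unadjusted *p*-value under 0.05 or without overlap (otherwise the highest per length in each role), the 5 genes most like *Il1b*, and the most abundant gene (mean over all libraries) of most marker lists. 1 marker gene is not reported here. *Chil3*, *Itgax*, *Ly6c2*, *Pf4*, *Ngp*, *Trem1*, *Retnlg*, *Camp*, *S100a8*, *Cldn5*, *Hba-a2* and the genes that overlap members were named after their values were seen. Replicate libraries differed by more than sampling noise (chi-square 20.6 to 73.5 per degree of freedom) and were used as separate mice. Alternatives were other scaling and filters, DESeq2, a block for replicate number, a sex covariate, no fold threshold, and each library left out.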

Additional observations from a re-analysis of the deposited data

How the results depend on the processing

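All 10 genes kept a higher level in GRdim/dim lungs in the 12 alternatives tried for each, which reuse the same 6 libraries. The median log2 fold change of the 10 lay between 0.30 (without GRdim/dim replicate 1) and 0.55. Without a filter on low counts, 522 of 31368 genes and 1 of the 10 (*Il1b*) were called, and 3 of the 10 had an unadjusted *p*-value under 0.05. DESeq2 called 274 genes and 0 of the 10, with 2 at an unadjusted *p*-value under 0.05. This number was 2 with a covariate for sex-linked expression. With each library left out in turn, edgeR called 4 to 22 genes (12, 4 and 17 without GR+/+ replicate 1, 2 and 3, and 14 without GRdim/dim replicate 3), 0 of the 10 and 0 of the wider list, and 1 to 3 of the 10 had an unadjusted *p*-value under 0.05. The differences of the log2 ratios then lay between -0.51 and 0.22 for *Il1rn* to *Il1b*, between -0.0055 and 0.71 for *Il1r2* to *Il1r1*, and between -0.53 and 0.021 for *Il1a* to *Il1b*. *Il1rn* to *Il1b* reversed without GRdim/dim replicate 2, *Il1r2* to *Il1r1* without GRdim/dim replicate 1 and *Il1a* to *Il1b* without GR+/+ replicate 2. The causes were not tested. With the replicate number as a block, edgeR called 34 genes, 0 of the 10 and 0 of the wider list, and 2 of the 10 had an unadjusted *p*-value under 0.05. The share of all genes under that unadjusted *p*-value was 9.6% in the main edgeR fit. It was not computed for the alternatives, so their counts among the 10 cannot be set against it. The sources do not say that the numbers pair the mice. The deviations of same-numbered libraries correlated at 0.22, 0.04 and -0.05 over genes. The first of these was the highest of all pairs, but not every library correlated best with its own number. With 3 libraries per genotype, this check cannot exclude pairing. The fewest counts of the 10 genes were those of *Il1a*, 36 in its lowest library, so counting error is largest there.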
